A study of Rattus norvegicus with 6 samples.

Results

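The genes described here encode enzymes that add or remove methyl and acetyl groups on histones, with the non-catalytic partners of Polycomb repressive complex 2. They were chosen by symbol: lysine demethylases (Kdm), the Kmt2, Kmt5, Setd, Suv39h and Ehmt lysine methyltransferases, arginine methyltransferases (Prmt), numbered Kat and Hdac genes, sirtuins, and Ezh1, Ezh2, Eed, Suz12, Crebbp, Ep300 and Dot1l. Of 14217 genes measured with an unambiguous probe set, 72 met this rule, with 122 of 31042 probe sets. A further 4 probe sets were listed with a member symbol together with other symbols and were not assigned to a gene. RNA came from cultured primary rat Schwann cells of the sciatic nerve that carried an inducible RafER allele, a Raf kinase fused to an estrogen receptor domain so that tamoxifen switches it on. Cells of the tamoxifen group (3 arrays) received tamoxifen for 24 h, and cells of the vehicle group (3 arrays) received ethanol for 24 h, in both groups after 24 h in a minimal medium and in 3 independent experiments. Both groups carried RafER, so an effect of tamoxifen itself and one of Raf cannot be told apart, and which promoter drives RafER was not stated. The source labels speak of treated rats, whereas the design text treats cultured cells, and what a replicate is was taken from that text.

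Histone tails carry methyl and acetyl groups that mark genes as active or silent. Acetyltransferases open chromatin and deacetylases close it, while methyl groups act through the residue they sit on: those on lysine 4 of histone H3 mark promoters and enhancers, those on lysine 27, written by Polycomb repressive complex 2, mark silenced genes, and those on lysine 9 mark heterochromatin. In Schwann cells Hdac1 and Hdac2 are known to be needed for myelination, and Polycomb repressive complex 2 is known to hold injury-response genes silent.

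Values are log2 expression levels per probe set, and each gene is given by its probe set of highest mean over the 6 arrays. A difference is the log2 level in tamoxifen minus that in vehicle with the standard error (SE) of limma's model. A gene passed where limma's moderated test, adjusted over all 31042 probe sets by Benjamini and Hochberg, gave a p under 0.05. This test took the arrays as unpaired, and calls of members that changed with experiment as a blocking term are given beside those genes. The vehicle array of experiment 1 stood apart: averaged over 3 control transcripts, its 3' probes exceeded its 5' probes by 0.84 log2 units, and those of the other 5 arrays by 0.16 to 0.27. All 8 measured Schwann cell markers had a mean above 6, with Sox10 at 10.54 to 10.91 in tamoxifen and 11.09 to 12.41 in vehicle. Of those 8 markers 3 fell (Pmp22, Ngfr and S100b) and 0 rose. Of 12 macrophage markers 1 had a mean of at least 6, of 7 endothelial markers 0, and none of either list passed. Of 12 fibroblast markers 6 had a mean of at least 6, 3 rose and 3 fell. Col1a1 was at 11.71 to 12.22 in tamoxifen and 12.87 to 13.35 in vehicle, whereas Lum was at 3.32 to 3.54 and Dcn at 4.01 to 4.28 over all arrays. Mfap5 stood at 10.81 on vehicle array 3, against 5.05 to 6.51 on the other 5 arrays. Of 8 smooth muscle and pericyte markers 3 had a mean of at least 6 and 0 passed, with Tagln at 8.42 to 9.98 in tamoxifen and 8.75 to 10.94 in vehicle. Tagln and Pdgfrb were highest on both arrays of experiment 3. There Pdgfrb stood at 7.81 in tamoxifen and 9.0 in vehicle, against 6.1 to 7.27 in experiments 1 and 2. The part of these markers in the results was not tested. Fewer cells of a type and less RNA per cell cannot be told apart in such samples.

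After tamoxifen, transcripts of the enzymes moved in both directions. Of Polycomb repressive complex 2, Ezh2, Suz12 and Eed rose while the Ezh2 paralogue Ezh1 fell. Of these calls only that of Suz12 held when each array was left out in turn, and the dimmest Ezh2 probe set fell. The arginine methyltransferases Prmt3, Prmt5 and Prmt7, the lysine methyltransferases Kmt5a and Suv39h2 and the demethylases Kdm6b and Kdm2b rose as well. Falls were found for Kmt2e, Kmt2c and Setd1b of the lysine 4 methyltransferase family, for Sirt2, Sirt3 and Sirt7, for Hdac8 and Hdac10 and for 5 demethylases. In all, 11 of 72 members rose and 20 fell. These are 15.3% and 27.8% of the members, and over all genes tested 13.9% rose and 17.3% fell. The share that rose was thus near the background. The share that fell was higher, but members were seldom dim: 6.94% had a mean log2 level under 6, against 32.4% of all genes. Among genes left by a filter on dim probe sets, 14.9% of 67 members rose and 28.4% fell, against a background of 19.2% and 25.4%, so there the falls were also near the background.

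The median difference of the 72 members was -0.24 log2 units, against 0.01 over all genes, and the median absolute difference was 0.43, against 0.25. Member differences ran from -1.03 to 1.33. Only Kdm6b and Kmt5a rose by at least 1 log2 unit, and only Sirt3 fell by as much. Tamoxifen and vehicle arrays did not overlap for 15 members that were higher (20.8%) and 30 that were lower (41.7%), against a background of 23.7% and 25.4%. These medians and shares are set against all genes, which were dim more often than the members (32.4% against 6.94%). They were not computed for the genes left by the filter on dim probe sets. With experiment as a blocking term, 10 members rose and 24 fell, where 13.9% of all genes rose and 19.4% fell. When each array was left out in turn, 14 of the 31 calls held every time: Suz12, Kdm6b, Kdm2b, Kmt5a, Suv39h2 and Prmt5 rose, and Kmt2e, Kdm3a, Kdm3b, Kat5, Prmt9, Hdac8, Sirt2 and Sirt3 fell. Leaving out tamoxifen array 2 left 7 rises and 9 falls, with 9.66% of all genes higher and 12.1% lower. Leaving out tamoxifen array 3 left 7 and 11, with 10.2% and 11.9% of all genes. Without vehicle array 2 or 3 the falls numbered 12 and 13, with 13.7% and 14.9% of all genes lower. Calls over all genes thus also became fewer in these settings. Without vehicle array 1, which stood apart in its 3' signal, 14 members rose and 16 fell, with 13.5% and 15.3% of all genes.

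**Figure D1:**
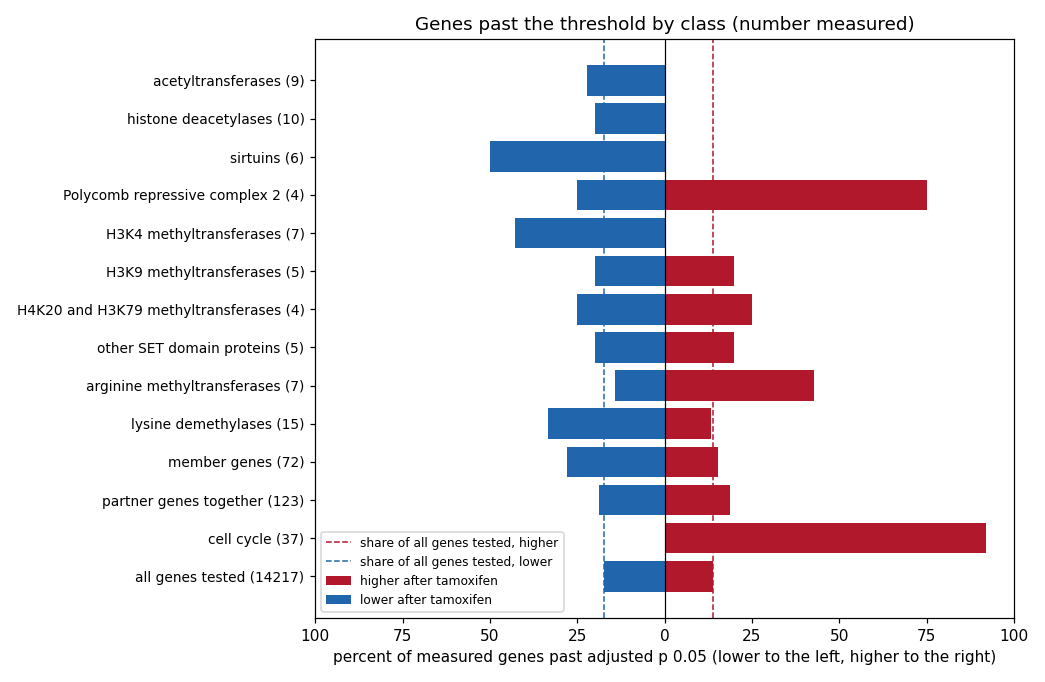
Percent of measured genes past an adjusted p of 0.05 in each class of enzyme, in all 72 members, in their partner genes, in cell cycle genes and in all genes tested, with falls to the left and rises to the right of 0 and the number measured in brackets. Dashed lines mark the shares of all genes, 13.9% higher and 17.3% lower; Polycomb repressive complex 2 and arginine methyltransferases extend furthest to the right among the enzymes, and the sirtuins extend furthest to the left.

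**Figure D2:**
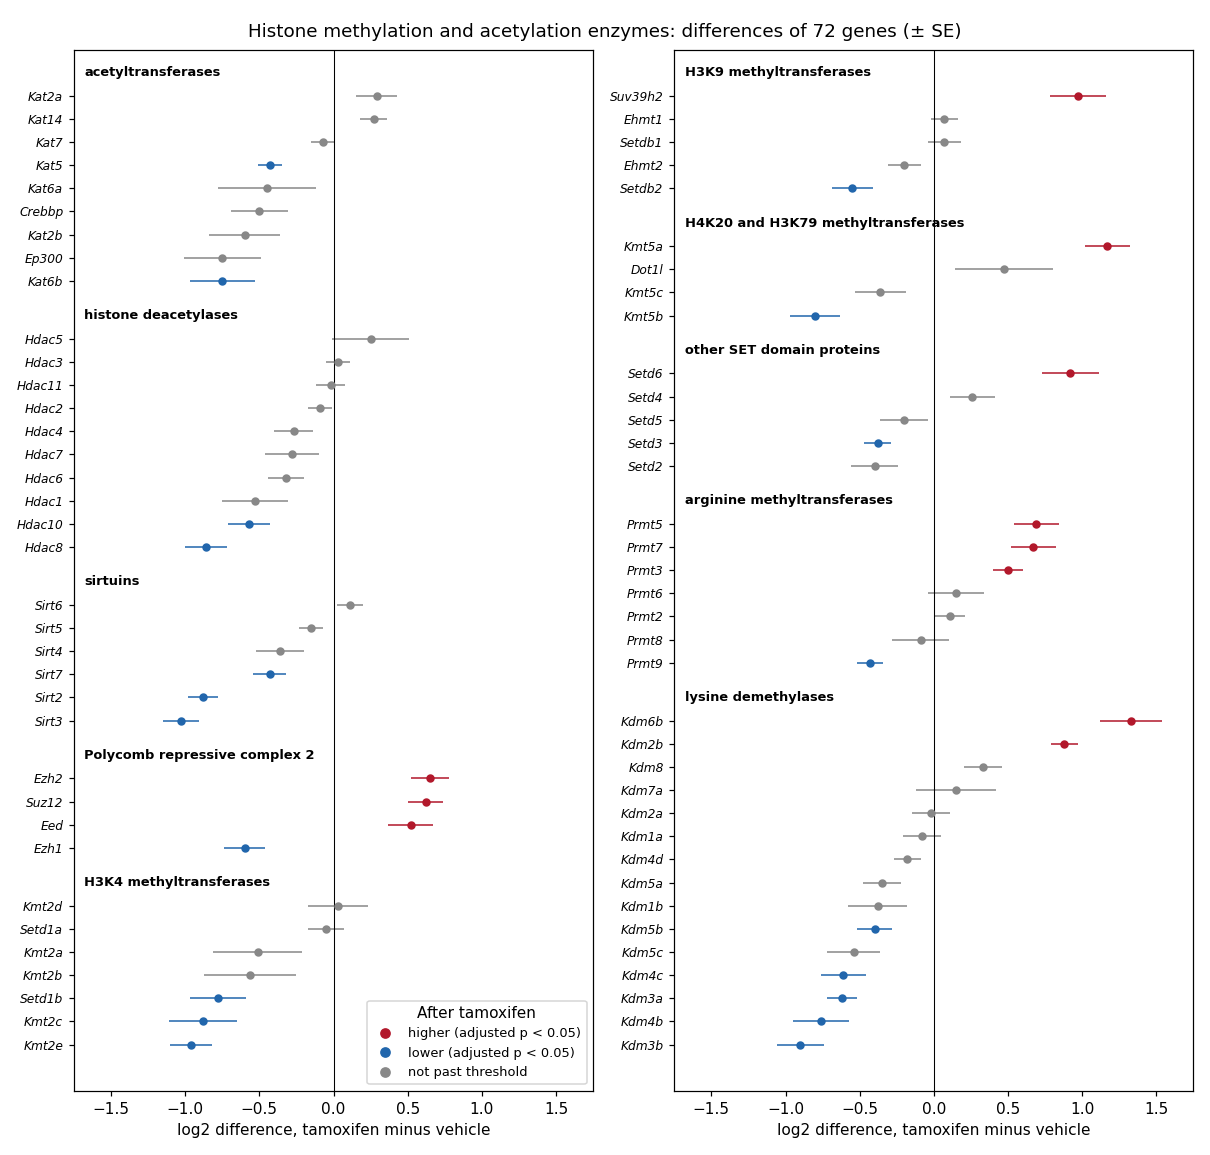
Log2 difference (tamoxifen minus vehicle, x axis) of each of the 72 genes with its standard error, grouped by class and ordered by size, coloured by call. Kdm6b at 1.33 lies furthest right and Sirt3 at -1.03 furthest left.

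Cell cycle genes rose strongly in the same cells. Of 37 measured, 34 rose (91.9%) and 0 fell, with a median difference of 1.55. Over all genes 13.9% rose and 17.3% fell, with a median difference of 0.01. The mean log2 level of these genes was 7.93, 8.70 and 8.82 on tamoxifen arrays 1, 2 and 3, and 6.80, 6.77 and 6.79 on vehicle arrays 1, 2 and 3. Ccna2, the S phase and mitosis cyclin, rose by 4.26 ± 0.46, the spindle checkpoint kinase gene Ttk by 3.50 ± 0.35 and the mitotic kinase gene Cdk1 by 3.40 ± 0.43. Their part in the changes of the enzymes was not tested.

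Polycomb repressive complex 2 consists of a catalytic subunit, Ezh2 or its less active paralogue Ezh1, the scaffold Suz12 and Eed, which binds the methylated tail. Of these 4 genes 3 rose and 1 fell, where 13.9% of all genes rose and 17.3% fell. Ezh2 had log2 levels of 9.42, 9.51 and 9.62 on tamoxifen arrays 1, 2 and 3, against 9.12, 8.82 and 8.67 on vehicle arrays 1, 2 and 3. The groups do not overlap, and vehicle array 1 is the closest to the tamoxifen values. Ezh2 rose by 0.65 ± 0.13 (adjusted p = 0.0142), which no longer passed on leaving out tamoxifen array 2 (adjusted p = 0.0514) or 3 (0.0522). A second Ezh2 probe set rose by 0.80, while the dimmest, at of 4.24 to 4.58 in tamoxifen and 5.31 to 5.58 in vehicle, fell by 1.04 (adjusted p = 0.00254). Averaged over its probe sets, the Ezh2 difference was 0.14 and did not pass (adjusted p = 0.343).

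Suz12 stood at 9.03, 8.76 and 8.90 in tamoxifen, against 8.39, 8.37 and 8.07 in vehicle. All 3 tamoxifen values lie above all 3 vehicle values, and Suz12 rose by 0.62 ± 0.12 (adjusted p = 0.0128). Eed stood at 9.66, 9.86 and 10.02 in tamoxifen and 9.58, 9.30 and 9.10 in vehicle. In experiment 1 its levels differed by 0.08, in experiments 2 and 3 by 0.56 and 0.92. Eed rose by 0.52 ± 0.15 (adjusted p = 0.0493), at the edge of the threshold. That call was lost with experiment as a blocking term (adjusted p = 0.0882) and without each array except vehicle 1 (adjusted p = 0.0539 to 0.148). It was also lost with median centring (adjusted p = 0.0695) and with a robust, trended variance (adjusted p = 0.0576).

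Ezh1, the paralogue found mostly in cells that have stopped dividing, went the other way. It stood at 8.61, 8.39 and 8.09 in tamoxifen, against 9.01, 8.91 and 8.98 in vehicle, with tight vehicle values and no overlap. Ezh1 fell by 0.60 ± 0.14 (adjusted p = 0.0212). The call did not survive leaving out vehicle array 2 or 3 or tamoxifen array 2 (adjusted p = 0.0509 to 0.0654). Its dimmer probe set gave a difference of 0.13 that did not pass, and with the mean of both probe sets the difference was -0.23 (adjusted p = 0.393).

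Kdm6b, a demethylase that removes the mark written by Polycomb repressive complex 2, had the largest difference of all members. It stood at 10.07, 9.66 and 10.21 in tamoxifen, against 8.30, 8.94 and 8.71 in vehicle. Every tamoxifen array lies well above every vehicle array, although experiment 2, at 0.72, differed less than experiments 1 and 3, at 1.77 and 1.5. Kdm6b rose by 1.33 ± 0.21 (adjusted p = 0.0052). By their brightest probe sets, the writer gene Ezh2, the scaffold gene Suz12 and this eraser were thus higher in the same samples. The dimmest Ezh2 probe set fell by 1.04, and the Ezh2 call was lost without tamoxifen array 2 or 3.

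Promoter stretches show the sequence context of members past the threshold. They are printed where the window, 250 bases before to 50 after the RefSeq start in build GRCr8, held a match to an E2F, ETS or CRE motif. Windows were found for 61 of the 72 members. The letters searched on both strands were TTTCGCGC, TTTGGCGC, TTTCCCGC and TTTGCCGC for E2F, the factor family of S phase genes, CCGGAAGT for ETS factors, TGACGTCA for CRE, TTTGAA for the cell cycle element CHR and TGACTCA for AP-1. Capitals mark the matches below, each stretch is 120 bases long and runs 5′ to 3′ along the gene, and 0 matches in member windows overlapped a match to another motif.
Ezh2 (rose, chr4:77687154-77687273, minus strand, E2F match): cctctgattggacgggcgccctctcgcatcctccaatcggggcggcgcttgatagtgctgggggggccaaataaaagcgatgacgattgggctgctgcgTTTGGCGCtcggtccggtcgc
Suz12 (rose, chr10:65464760-65464879, plus strand, E2F match and a reversed CHR match): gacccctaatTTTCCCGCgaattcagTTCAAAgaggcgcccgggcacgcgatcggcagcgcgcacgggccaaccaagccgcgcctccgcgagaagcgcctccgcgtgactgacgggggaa
Suv39h2 (rose, chr17:79665351-79665470, plus strand, CRE and CHR matches): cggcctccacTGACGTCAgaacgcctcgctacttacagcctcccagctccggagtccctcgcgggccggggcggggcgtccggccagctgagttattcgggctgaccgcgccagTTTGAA
Kat5 (fell, chr1:212332364-212332483, minus strand, 2 ETS matches): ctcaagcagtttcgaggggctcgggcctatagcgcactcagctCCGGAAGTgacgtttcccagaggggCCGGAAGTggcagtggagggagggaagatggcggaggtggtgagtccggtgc
Hdac10 (fell, chr7:122083817-122083936, minus strand, ETS match): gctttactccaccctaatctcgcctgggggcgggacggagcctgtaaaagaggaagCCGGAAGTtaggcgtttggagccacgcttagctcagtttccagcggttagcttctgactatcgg
Prmt9 (fell, chr19:47318653-47318772, minus strand, CRE match): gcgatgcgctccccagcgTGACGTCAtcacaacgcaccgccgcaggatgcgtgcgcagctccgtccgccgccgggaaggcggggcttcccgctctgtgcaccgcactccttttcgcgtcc

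The E2F letters lay 10 bases after the start in Ezh2 and at position -199 in Suz12. They were found in 2 of 10 windows of members that rose, in 0 of 18 of those that fell and in 3 of 33 of those that did not pass, namely Kdm1a, Kmt5c and Sirt5. Of all 27457 promoter windows 2.25% held them, and of the 11700 windows of genes tested 3.65%. ETS letters were in 4 of 61 member windows (6.56%), near the 6.82% of genes tested, and all 4 genes, Kat5, Hdac10, Kat7 and Setd4, fell or did not pass. CHR letters were found in 5 member windows (8.2%, against 12.3% of genes tested): Suz12 and Suv39h2, which rose, Hdac8, with 4 matches, and Sirt7, which fell, and Kat14, which did not pass. CRE letters were found in 2 (3.28%, against 2.85%) and AP-1 letters in 0 (against 3.79%). A match is a description of these windows and not a binding site.

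Kmt5a and Kmt5b, which act in turn on lysine 20 of histone H4, moved apart. Kmt5a, which places the first methyl group and is known to be tied to cell division, stood at 8.36, 8.46 and 8.86 in tamoxifen, against 7.52, 7.23 and 7.41 in vehicle. The groups are separated by a clear gap in every experiment, and Kmt5a rose by 1.17 ± 0.15 (adjusted p = 0.0029). Kmt5b, which adds further methyl groups, stood at 9.10, 8.81 and 8.54 in tamoxifen and 9.83, 9.51 and 9.51 in vehicle. It fell by 0.80 ± 0.17 (adjusted p = 0.015), which no longer passed on leaving out tamoxifen array 2 (adjusted p = 0.0543). Kmt5c, with the same activity, had a difference of -0.36 (adjusted p = 0.183). Dot1l, the methyltransferase of a lysine in the globular core of histone H3, had a difference of 0.47 (adjusted p = 0.364) and passed as higher without vehicle array 1 (0.85, adjusted p = 0.0204).

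Among the 5 measured methyltransferases of lysine 9 of histone H3, 1 rose and 1 fell. Suv39h2, an enzyme of heterochromatin, stood at the low levels of 5.54, 5.91 and 6.15 in tamoxifen, against 5.14, 4.67 and 4.88 in vehicle. It rose by 0.97 ± 0.19 (adjusted p = 0.0116), with a smaller step in experiment 1 (0.40) than in experiments 2 and 3 (1.23 and 1.27). Setdb2 stood at 6.25, 6.70 and 6.34 in tamoxifen and 7.03, 6.84 and 7.07 in vehicle and fell by 0.55 ± 0.14 (adjusted p = 0.0304). The Setdb2 call was lost with experiment as a blocking term (adjusted p = 0.0548) and on leaving out vehicle array 1 or 3, or tamoxifen array 1 or 3 (adjusted p = 0.0674 to 0.0987). Ehmt1, Ehmt2 and Setdb1 had differences of 0.07, -0.20 and 0.07 that did not pass.

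Of the 7 measured members of the lysine 4 methyltransferase group 3 fell (42.9%) and 0 rose, where 17.3% of all genes fell and 13.9% rose. Kmt2e, a SET domain protein that binds the methylated tail and has no well established catalytic activity, stood at 11.16, 10.81 and 10.66 in tamoxifen, against 11.82, 11.78 and 11.91 in vehicle. It fell by 0.96 ± 0.14 (adjusted p = 0.00411). All 5 Kmt2e probe sets fell, by 0.96 to 1.18, which made it the only member with several probe sets and a call by its brightest whose probe sets all passed the same way.

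Kmt2c, an enhancer methyltransferase, stood at 9.38, 8.52 and 9.02 in tamoxifen and 10.12, 9.65 and 9.78 in vehicle. It fell by 0.88 ± 0.23 (adjusted p = 0.0353). That call did not survive leaving out each array except tamoxifen 1 (adjusted p = 0.0553 to 0.0904), its dimmer probe set had a difference of 0.08, and the mean of both did not pass (-0.40, adjusted p = 0.175). Setd1b, a writer at promoters, stood at 7.72, 7.29 and 7.40 in tamoxifen and 7.89, 8.47 and 8.41 in vehicle. Its vehicle array of experiment 1 lay close to the tamoxifen values, and in that experiment the difference was -0.17, against -1.17 and -1.01 in experiments 2 and 3. Setd1b fell by 0.78 ± 0.19 (adjusted p = 0.0247), and the call did not survive leaving out vehicle array 2 or 3 or tamoxifen array 2 or 3 (adjusted p = 0.0733 to 0.0887).

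Kmt2a and Kmt2b, the mixed-lineage leukaemia type enzymes of promoters, had differences of -0.51 (adjusted p = 0.274) and -0.56 (adjusted p = 0.255). Both were lower in 3 of 3 experiments and passed with experiment as a blocking term (adjusted p = 0.0222 for Kmt2a and 0.0381 for Kmt2b). The dimmer probe sets of Kmt2a, at -0.25 to 0.06, and of Kmt2b, at -0.36, did not pass without the block. Kmt2d and Setd1a had differences of 0.03 and -0.05 that did not pass.

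**Figure D3:**
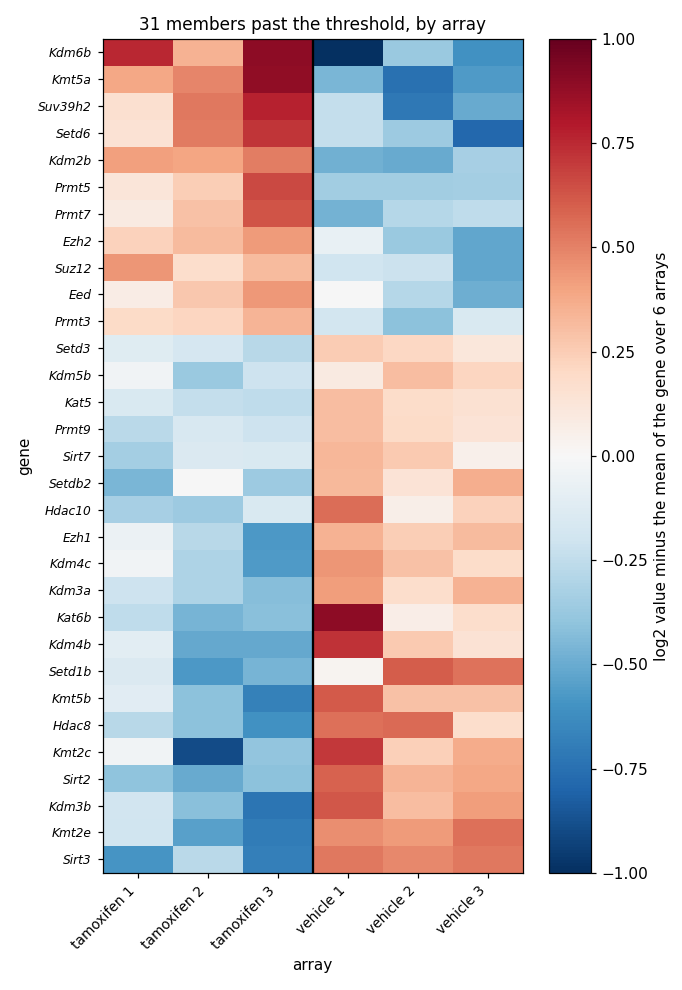
Log2 level of the 31 members past the threshold on each array, as the deviation from the gene's mean over 6 arrays (colour, in log2 units), with tamoxifen arrays left of vehicle arrays and genes ordered by difference. The 11 genes that rose fill the top and the 20 that fell the rest; Setd1b, Hdac10 and Kat6b are among those whose vehicle array 1 departs from vehicle arrays 2 and 3.

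Lysine demethylases were the largest class, and of 15 measured 2 rose and 5 fell. These are 13.3% and 33.3%, against 13.9% and 17.3% of all genes. Beside Kdm6b, the gene that rose was Kdm2b, a demethylase that also brings Polycomb repressive complex 1 to unmethylated CpG islands. Kdm2b stood at 10.13, 10.12 and 10.23 in tamoxifen, against 9.24, 9.22 and 9.39 in vehicle. Spread within each group was small, the groups lie far apart, and Kdm2b rose by 0.88 ± 0.09, with the lowest adjusted p of the 72 members by its brightest probe set (0.00128). Its paralogue Kdm2a had a difference of -0.02 (adjusted p = 0.92).

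The falls took in both Kdm3 genes, whose enzymes remove methyl groups from lysine 9 of histone H3. Kdm3b stood at 9.36, 9.13 and 8.82 in tamoxifen and 10.17, 9.86 and 9.97 in vehicle, without overlap, and fell by 0.90 ± 0.16 (adjusted p = 0.00808). Kdm3a had a difference of -0.62 ± 0.10 (adjusted p = 0.00688), with levels of 8.47 to 8.69 in tamoxifen and 9.07 to 9.31 in vehicle. Kdm4b, of a family that acts on trimethylated lysine 9 and lysine 36, fell by 0.76 ± 0.19 (adjusted p = 0.0273), which no longer passed on leaving out vehicle array 2 or tamoxifen array 2 or 3 (adjusted p = 0.0545 to 0.0961). Of the 3 Kdm4b probe sets 2 fell, the dimmest by 0.57. The remaining one had a difference of -0.22 with overlapping groups and did not pass (adjusted p = 0.199).

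Kdm4c fell by 0.61 ± 0.15 (adjusted p = 0.0269) at levels of 3.25 to 4.26, close to 2.99, the lowest value of all probe sets. That call did not survive leaving out vehicle array 1 or 2 or tamoxifen array 2 or 3 (adjusted p = 0.0633 to 0.0831). Kdm5b, which removes methyl groups from lysine 4, fell by 0.40 ± 0.12 (adjusted p = 0.0472). With experiment as a blocking term the Kdm5b call was lost (adjusted p = 0.0842), as it was on leaving out vehicle array 2 or 3, or tamoxifen array 2 or 3 (adjusted p = 0.11 to 0.138). Of its 5 probe sets 2 fell and 3 did not pass, with differences of -0.68 to 0.12. Kdm5c, another enzyme of that family, had a difference of -0.54 (adjusted p = 0.0785) that passed with the block (adjusted p = 0.021). The dimmer Kdm5c probe sets, at -0.25 and -0.0, did not pass without the block.

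Differences of the other demethylases ran from -0.38 (Kdm1b) to 0.33 (Kdm8) and did not pass. Kdm1a, the flavin-dependent demethylase LSD1, had a difference of -0.08 (adjusted p = 0.713). Of those that did not pass with all arrays, Kdm8 passed as higher without vehicle array 1 (adjusted p = 0.0306), and Kdm5a passed as lower without tamoxifen array 1 (adjusted p = 0.0221).

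**Figure D4:**
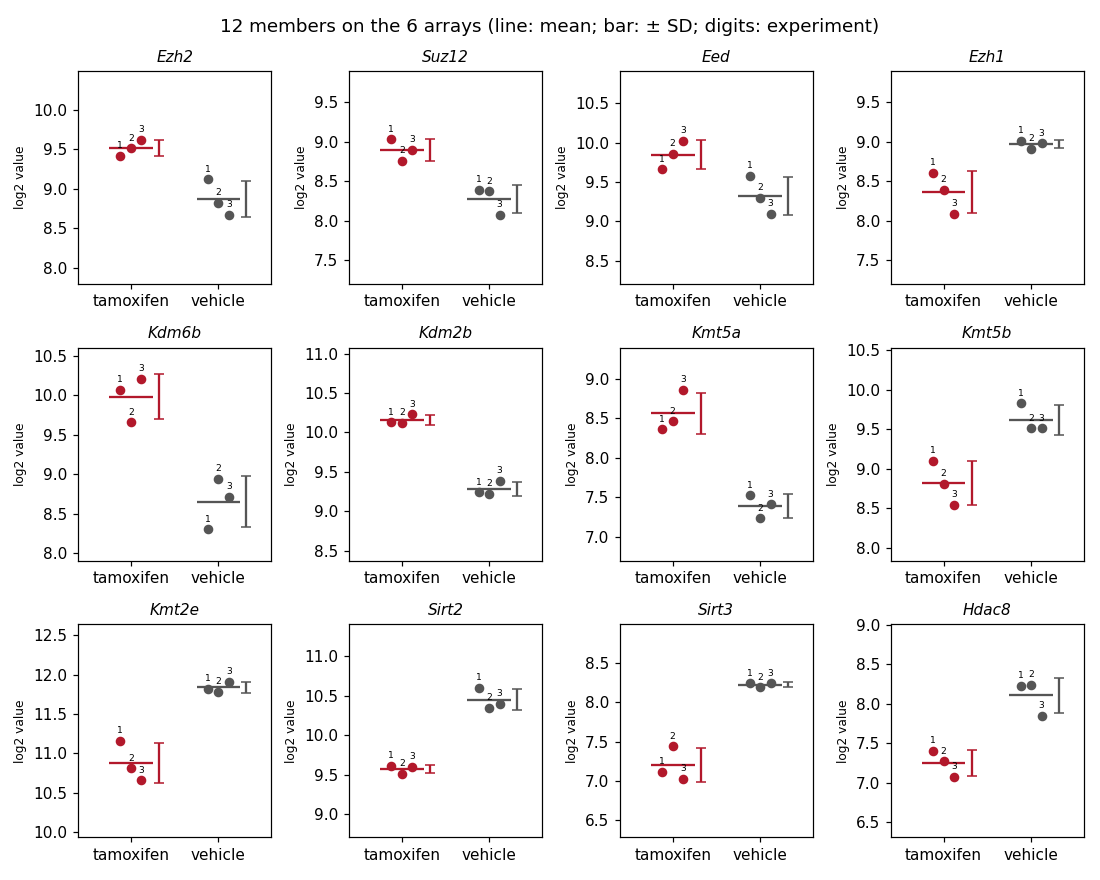
Log2 levels of 12 members on each array, with tamoxifen left of vehicle in every panel, the experiment number beside each point, a line at the mean and a bar of ± SD (n = 3 arrays per group). All panels span the same range of log2 units; Ezh2, Suz12, Eed, Kdm6b, Kdm2b and Kmt5a are higher in tamoxifen, and Ezh1, Kmt5b, Kmt2e, Sirt2, Sirt3 and Hdac8 are lower.

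Arginine methyltransferases modify histones and many RNA-binding proteins, and of 7 measured genes 3 rose and 1 fell. These are 42.9% and 14.3%, against 13.9% and 17.3% of all genes. Prmt5, the main enzyme of symmetric dimethylation, stood at 9.64, 9.76 and 10.18 in tamoxifen, against 9.17, 9.17 and 9.18 in vehicle. The vehicle arrays were nearly identical, and Prmt5 rose by 0.69 ± 0.15 (adjusted p = 0.0163). Prmt7, which adds single methyl groups, stood at 8.26, 8.47 and 8.80 in tamoxifen and 7.70, 7.89 and 7.92 in vehicle and rose by 0.67 ± 0.15 (adjusted p = 0.0202). Its call did not survive leaving out tamoxifen array 2 (adjusted p = 0.0617).

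Prmt3, a cytosolic enzyme known to act on a ribosomal protein, rose by 0.50 ± 0.10 (adjusted p = 0.0152), with levels of 7.31 to 7.46 in tamoxifen and 6.71 to 6.97 in vehicle. The Prmt3 call did not survive leaving out tamoxifen array 3 (adjusted p = 0.0536). Prmt9, known to act on a splicing factor, went down: it stood at 8.05 to 8.16 in tamoxifen and 8.46 to 8.63 in vehicle, and fell by 0.43 ± 0.09 (adjusted p = 0.0133). Prmt2, Prmt6 and Prmt8 had differences of 0.11, 0.15 and -0.09 that did not pass.

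No acetyltransferase gene rose by its brightest probe set, and 2 of 9 fell (22.2%, near the 17.3% of all genes). Kat5, the catalytic subunit of the NuA4 complex, stood at 9.41, 9.33 and 9.31 in tamoxifen, against 9.87, 9.75 and 9.72 in vehicle. The change was small and even, at -0.46, -0.42 and -0.41 in experiments 1, 2 and 3, and Kat5 fell by 0.43 ± 0.08 (adjusted p = 0.0122). Kat6b stood at 7.65, 7.44 and 7.49 in tamoxifen and 8.80, 7.97 and 8.08 in vehicle, with vehicle array 1 far above the rest. It fell by 0.75 ± 0.22 (adjusted p = 0.0482). The Kat6b call did not survive leaving out vehicle array 3 or any 1 tamoxifen array (adjusted p = 0.0629 to 0.142), with quantile normalization (adjusted p = 0.0602) and with the mean of its probe sets (adjusted p = 0.0627).

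The coactivator genes Ep300 and Crebbp, whose products acetylate histones at enhancers, were lower in every experiment but did not pass. Ep300 stood at 9.83, 9.07 and 9.17 in tamoxifen, against 10.51, 9.80 and 10.01 in vehicle. Tamoxifen array 1 lies above vehicle array 2, so the groups overlap, while within experiments 1, 2 and 3 the differences were -0.68, -0.73 and -0.84. Its difference was -0.75 ± 0.26 (adjusted p = 0.079), which passed with experiment as a blocking term (adjusted p = 0.00474) and without tamoxifen array 1 (adjusted p = 0.0309). A second, dimmer Ep300 probe set had a difference of 0.13, and the mean of both was -0.31 and did not pass (adjusted p = 0.149). Crebbp stood at 9.42, 8.74 and 9.32 in tamoxifen and 9.74, 9.48 and 9.78 in vehicle. Here the groups do not overlap, and the difference was -0.50 ± 0.19 (adjusted p = 0.109), with an adjusted p of 0.0298 with the block. The 5 Crebbp probe sets had differences of -0.62 to 0.23, none past the threshold, and their mean was -0.19 (adjusted p = 0.374).

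Kat6a likewise did not pass (-0.45, adjusted p = 0.384), but did with the block (adjusted p = 0.0446). The dimmer Kat6a probe sets, at -0.06 and 0.06, did not pass without the block. Kat14, of the ATAC complex, had a difference of 0.27 by its brightest probe set (adjusted p = 0.079), while its dimmer probe set rose by 0.95 (adjusted p = 0.00181). Kat2a, Kat2b and Kat7 had differences of 0.29, -0.60 and -0.07 that did not pass.

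Of 10 measured zinc-dependent histone deacetylases 2 fell and 0 rose. Hdac8, known to deacetylate a cohesin subunit, stood at 7.40, 7.27 and 7.07 in tamoxifen, against 8.23, 8.24 and 7.85 in vehicle. The groups do not overlap, and Hdac8 fell by 0.86 ± 0.14 (adjusted p = 0.00708). Hdac10, known as a polyamine deacetylase, stood at 6.90, 6.87 and 7.08 in tamoxifen and 7.79, 7.29 and 7.46 in vehicle and fell by 0.57 ± 0.14 (adjusted p = 0.0307). That call did not survive leaving out vehicle array 3 or any 1 tamoxifen array (adjusted p = 0.0541 to 0.104), and its 3 other probe sets, at -0.39 to -0.21, did not pass. The mean of all 4 probe sets did not pass (-0.36, adjusted p = 0.0932), nor did Hdac10 without both arrays numbered 1 (-0.40, adjusted p = 0.1).

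Hdac1 and Hdac2, the class I enzymes that Schwann cells are known to need for myelination, did not pass by their brightest probe sets. Hdac1 stood at 10.78, 10.79 and 10.80 in tamoxifen, against 10.81, 11.65 and 11.52 in vehicle. Vehicle array 1 lay just above the tamoxifen arrays, and vehicle arrays 2 and 3 lay well above them. The Hdac1 difference was -0.53 ± 0.22 (adjusted p = 0.126), and without vehicle array 1 it was -0.79 and passed (adjusted p = 0.0039). Its other probe set had 10.18, 10.23 and 10.13 in tamoxifen and 10.89, 11.01 and 10.89 in vehicle and fell by 0.76 (adjusted p = 0.00167), and the mean of both probe sets also passed (-0.64, adjusted p = 0.0101).

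Hdac2 stood at 11.87, 11.84 and 11.78 in tamoxifen and 11.87, 11.93 and 11.96 in vehicle, nearly level, with a difference of -0.09 ± 0.08 (adjusted p = 0.48). Hdac3, the deacetylase of the nuclear corepressor complexes, was also level, with a difference of 0.03 (adjusted p = 0.814). Differences of the class II genes Hdac4, Hdac5, Hdac6 and Hdac7 were -0.27, 0.25, -0.32 and -0.28, and that of Hdac11 was -0.02. None of these passed.

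In the unpaired test the sirtuins, deacetylases that use NAD, had the highest share of falls among the classes, 3 of 6, and none rose. The class holds only 6 measured genes, and over all genes 17.3% fell. With experiment as a blocking term the sirtuins no longer ranked first, as the Sirt7 call was lost (adjusted p = 0.0571). The lysine 4 methyltransferases kept their 3 falls there and gained those of Kmt2a and Kmt2b (adjusted p = 0.0222 and 0.0381). Acetyltransferases likewise kept the falls of Kat5 and Kat6b and gained those of Kat6a, Crebbp and Ep300 (adjusted p = 0.0446, 0.0298 and 0.00474). Sirt2, a mainly cytoplasmic tubulin deacetylase known to be abundant in myelinating glia, stood at 9.61, 9.51 and 9.60 in tamoxifen, against 10.60, 10.35 and 10.40 in vehicle. The gap between the groups is wider than the spread within either, and Sirt2 fell by 0.88 ± 0.10 (adjusted p = 0.00183). Sirt3, the main deacetylase of mitochondria, stood at 7.12, 7.44 and 7.03 in tamoxifen and 8.24, 8.19 and 8.24 in vehicle. Its vehicle values are nearly the same on all 3 arrays, and Sirt3 fell by 1.03 ± 0.12 (adjusted p = 0.00219).

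Sirt7, a nucleolar sirtuin, stood at 8.33, 8.53 and 8.52 in tamoxifen and 9.0, 8.93 and 8.72 in vehicle, and fell by 0.43 ± 0.11 (adjusted p = 0.0324). This call was lost with the block (adjusted p = 0.0571) and without each array except vehicle 3 (adjusted p = 0.069 to 0.0946), and with a robust, trended variance it did not pass (adjusted p = 0.0632). Sirt6, a chromatin-bound deacetylase, had a difference of 0.11, and the mitochondrial Sirt4 and Sirt5 had differences of -0.36 and -0.15. None of the 3 passed with all arrays, and Sirt4 passed as lower without tamoxifen array 3 (adjusted p = 0.0364). Sirt1 was not analysed here.

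Of the 5 other SET domain genes 1 rose and 1 fell. Setd6, known to methylate the NF-kappaB subunit RelA, stood at 7.60, 7.97 and 8.17 in tamoxifen, against 7.21, 7.09 and 6.67 in vehicle. It rose by 0.92 ± 0.19 (adjusted p = 0.0157), more in experiment 3 (1.5) than in experiment 1 (0.39), and the call did not survive leaving out tamoxifen array 2 or 3 (adjusted p = 0.0511 to 0.0595). Setd3, an actin histidine methyltransferase, stood at 9.55 to 9.71 in tamoxifen and 9.94 to 10.08 in vehicle and fell by 0.38 ± 0.09 (adjusted p = 0.0225). The Setd3 call did not survive leaving out vehicle array 1 or 2 or tamoxifen array 2 or 3 (adjusted p = 0.0524 to 0.0733), and with a robust, trended variance (adjusted p = 0.0502). Setd2, the enzyme that trimethylates lysine 36, had a difference of -0.40 (adjusted p = 0.13), which passed with the block (adjusted p = 0.0427). Setd4 and Setd5 had differences of 0.26 and -0.20 and did not pass with all arrays, and Setd4 passed as higher without vehicle array 1 (adjusted p = 0.0416).

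Several probe sets of a gene often disagreed. Of 27 members with several probe sets, 9 passed by the brightest, and for 1 of those, Kmt2e, all probe sets passed in the same direction. Ezh2 was the only member with calls in opposite directions, and in Hdac1 and Kat14 a dimmer probe set passed where the brightest did not. Over the 122 probe sets, 13 rose (10.7%) and 28 fell (23.0%), against a background of 11.5% and 12.9% of all probe sets. That background includes 9780 probe sets listed with no gene and was not filtered for dim ones, and Kmt2e alone gave 5 of the 28 falls. Of the 4 probe sets with several symbols, the one listed for Prmt1 and Prmt1l1 rose by 0.93 and the one listed for Kmt5a and Kmt5al1 rose by 1.02. Those listed for Suv39h1 with its pseudogene and for Setdb2 with Phf11 genes did not pass, at 0.13 and 0.09.

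**Figure D5:**
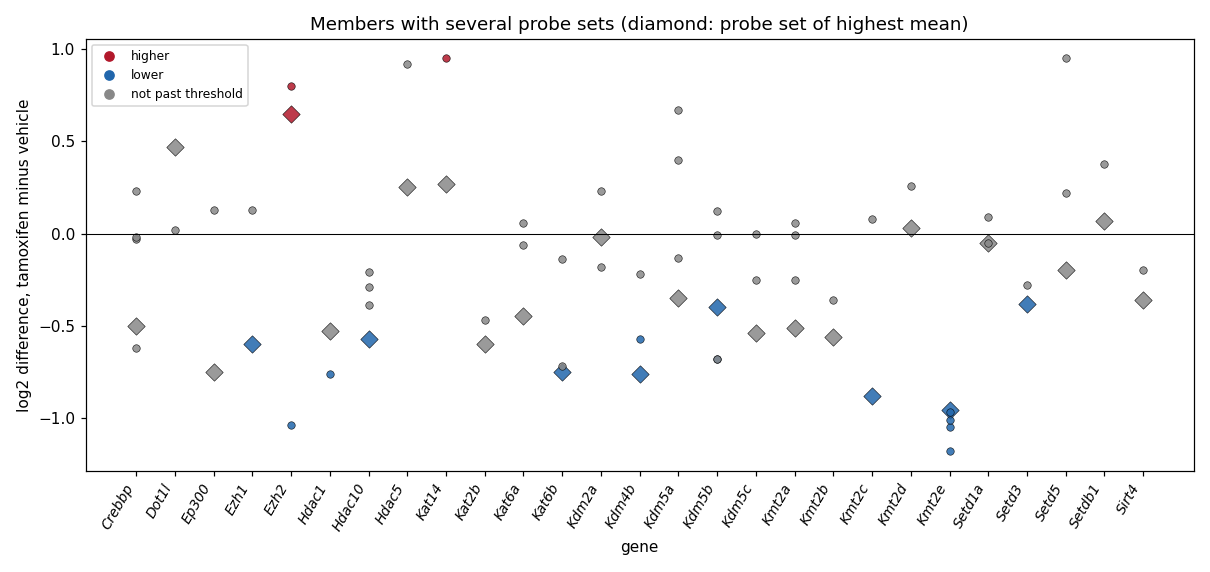
Log2 difference (tamoxifen minus vehicle, y axis) of every probe set of the 27 members with several, with a diamond for the probe set of highest mean and colour for the call. The 5 Kmt2e probe sets lie together between -1.18 and -0.96, whereas the 3 Ezh2 probe sets run from -1.04 to 0.80.

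Proteins that work with these enzymes were followed by lists of complex subunits, readers of the marks and further methyltransferases. Of 123 measured partner genes 23 rose and 23 fell (18.7% each, against 13.9% and 17.3% of all genes), with a median difference of -0.06. After the filter on dim probe sets, 23 of 119 partner genes rose and 25 fell, against a background of 19.2% and 25.4%. Among 24 Polycomb partners 5 rose and 4 fell, and the largest changes were in accessory subunits: Phf19, which guides Polycomb repressive complex 2 to chromatin, rose by 1.6 ± 0.22, its cofactor gene Jarid2 by 1.03 ± 0.13, and Pcgf6 of Polycomb repressive complex 1 by 0.97 ± 0.18. Phf19 stood at 7.02, 7.70 and 7.88 in tamoxifen and 5.94, 5.82 and 6.02 in vehicle, lowest among the tamoxifen arrays on array 1.

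Of 12 subunits of the COMPASS complexes, which house the lysine 4 methyltransferases, 1 rose and 2 fell. These are 8.33% and 16.7%, against 13.9% and 17.3% of all genes. Wdr5, a core subunit, rose by 1.06 ± 0.12 (adjusted p = 0.00168), opposite to Kmt2c and Setd1b. Pagr1 fell by 0.72 ± 0.16, which no longer passed on leaving out vehicle array 2 (adjusted p = 0.0553), and Men1 fell by 0.44 ± 0.10, which no longer passed on leaving out vehicle array 3 or tamoxifen array 2 or 3 (adjusted p = 0.0529 to 0.074).

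Acetyltransferase complexes had 2 rises and 5 falls among 25 genes. Jade1, a scaffold of the Kat7 complex, fell by 3.18 ± 0.39 (adjusted p = 0.00241), with levels of 7.54, 7.57 and 6.24 in tamoxifen and 10.65, 10.38 and 9.85 in vehicle, while Kat7 itself had a difference of -0.07. Ncoa1, a coactivator of nuclear receptors, fell by 1.2 ± 0.21 and Supt3h of the SAGA complex fell by 0.95 ± 0.11. Among 14 readers of acetylated lysine 3 rose and 3 fell (21.4% each). Mllt3 fell by 1.96 ± 0.49 (adjusted p = 0.029), which no longer passed on leaving out any 1 tamoxifen array (adjusted p = 0.0783 to 0.0889), with vehicle array 3 at 10.36 and vehicle arrays 1 and 2 at 8.48 and 8.47. Baz1a rose by 0.99 ± 0.16 and Brd8 fell by 0.82 ± 0.13.

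In deacetylase complexes 3 of 23 genes rose and 5 fell (13.0% and 21.7%, against 13.9% and 17.3% of all genes). The scaffold gene Sin3a fell by 0.83 ± 0.19, which no longer passed on leaving out tamoxifen array 2 or 3 (adjusted p = 0.0775 to 0.0819), and Tbl1xr1 fell by 0.77 ± 0.19, not past the threshold on leaving out vehicle array 1 or tamoxifen array 2 or 3 (adjusted p = 0.0502 to 0.101). With the mean of each gene's probe sets the Sin3a difference was -0.43 (adjusted p = 0.0206), and that of Tbl1xr1 was -0.35 and did not pass (adjusted p = 0.0784). Rcor1, the corepressor that links Kdm1a to deacetylases, rose by 0.75 ± 0.18, not past the threshold on leaving out vehicle array 1 or 3 or tamoxifen array 1 or 3 (adjusted p = 0.0524 to 0.0767).

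Further methyltransferases and readers of methyl marks had 9 rises and 4 falls among 25 genes. These are 36.0% and 16.0%, against 13.9% and 17.3% of all genes. Their median difference was 0.26, against 0.01 over all genes. The transcription factor gene Mecom, of the PRDM family, rose by 3.78 ± 0.31 (adjusted p = 6.65e-04), with levels of 9.03, 8.15 and 8.70 in tamoxifen and 5.41, 4.68 and 4.46 in vehicle. With the mean of its probe sets the Mecom difference was 2.33 (adjusted p = 9.03e-04). Uhrf1, which reads hemimethylated DNA during replication, rose by 1.84 ± 0.35, and the oxygenase gene Riox2 rose by 1.64 ± 0.14.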

How the data were processed

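Per the labels' protocols, total RNA of 6 Schwann cell samples was extracted with a Qiagen kit and labelled for Affymetrix arrays. The authors deposited log2 values per probe set. The submitters' processing notes name RMA, which normalises between arrays, without a version. The values run from 2.99 to 14.58, hold no detection calls, and understate changes of dim genes. The number of arrays limits the precision.

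Of 31042 probe sets (57 manufacturer controls left out), 20826 were listed with 1 gene symbol, 436 with several and 9780 with none. Entrez identifiers of 71 of 72 members matched the RefSeq table (GRCr8). Each gene is given by its probe set of highest mean. Tamoxifen and vehicle were compared with lmFit and eBayes of limma 3.58.1 (R 4.3.3), two-sided, without covariates, on all 6 arrays, adjusted by Benjamini-Hochberg over 31042 probe sets, at 0.05. The procedure was tested on simulated data.

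Same-numbered arrays correlated at 0.262, 0.198 and 0.279 after subtraction of group means, all over 0.1, and the design text names independent experiments. The number was therefore taken to pair the arrays. The main fit does not use this pairing, so its calls, counts and SE ignore it, and the fit with it as a block is an alternative. Others left out each array or both arrays numbered 1, changed the scaling, the variance model, the probe set rule and the threshold, or filtered dim probe sets (log2 value of at least 6 on at least 3 arrays).

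The members and lists were chosen with earlier results of these data known. Per-array values are given for up to 3 members per class with the largest change past the threshold and for Ezh1, Ezh2, Eed, Suz12, Crebbp, Ep300, Hdac1 and Hdac2, with ranges for a few, and up to 3 genes of each other list are named. Promoter sequences are from RefSeq, build GRCr8, and were chosen after the results were seen.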

Additional observations from a re-analysis of the deposited data

How the results depend on the processing

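Of 51 single gene results, 0 changed direction under those of the 15 alternatives that gave a value. Suv39h2 and Uhrf1 had none under the filter on dim probe sets, and Ccna2 had none without probe sets that may cross-hybridise. With each array left out in turn, members that rose numbered 7 to 14 and those that fell 9 to 18, and for partner genes the numbers were 17 to 26 and 12 to 20. Against a fold of 1.2, which is stricter by construction, 5 members rose and 6 fell, and 15 partner genes rose and 10 fell. With the experiment as a block (replicate block), 10 members rose and 24 fell, 4 calls being lost and 7 gained, as given beside those genes, and it changed no other call of a member. The block also gave 33 partner falls, within 1.5 times the count without it. Numbers of members that rose and fell were 12 and 18 with quantile normalization, 10 and 20 with median centring, and 13 and 18 without both arrays numbered 1, and partner genes that rose and fell numbered 27 and 18 with quantile normalization. Without both arrays numbered 1, Setdb2, Hdac10, Prmt9, Sirt7 and Setd3 did not pass, while Dot1l, Setd4, Ep300, Kdm5a and Hdac1 did. Kdm5b did not pass with quantile normalization, a robust and trended variance or the mean of its probe sets, and Hdac10 did not without probe sets that may cross-hybridise (-0.39, adjusted p = 0.081). Kat14 and Hdac5 passed with the mean of their probe sets. The cause of these shifts was not tested.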
